A study of Mus musculus with 3 samples.

Results

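The insulin-like growth factor (IGF) system was described across the cells of the mouse arcuate nucleus through 10 genes, taken by their symbols from the 31253 genes listed in the matrices. They were the ligands Igf1 and Igf2, the receptors Igf1r and Igf2r, the binding proteins Igfbp2, Igfbp3, Igfbp4, Igfbp5 and Igfbp7, and the binding protein-like gene Igfbpl1. The arcuate nucleus is the hypothalamic region beside the third ventricle and the median eminence that senses hormones and nutrients. All mice were male C57BL/6JRj, labelled 5 to 6 weeks old, and their diets began at weaning. The SC group ate standard chow (15 days), the 5-day group ate chow (10 days) before HFHS food (5 days), and the 15-day group ate HFHS food throughout (15 days), where HFHS is the labels' name for the high-fat, high-sugar food. Punches from 6 mice of a diet were pooled into 1 suspension and 1 single-cell library, so the 3 libraries carry no replicate of a diet, and animals within a pool cannot be told apart.

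The 3 libraries held 4825 (SC), 4041 (5-day) and 5157 (15-day) cells after filtering, 14023 in all, with median depths of 5131, 5779 and 4130 unique molecular identifiers (UMIs) per cell. A UMI marks 1 captured transcript molecule. Of 33 clusters, 30 were named from marker genes, and they gave 13 classes, among them every cell type the labels list. Cells called by a class name below are "-like" cells in this sense; neuron markers, for example, were highest in the neuron class for 14 of 14 genes, and astrocyte markers in the astrocyte class for 12 of 14. The 10 genes were left out of the clustering, so their levels did not set the classes. Small classes held few cells per library: border macrophages 37, 21 and 52 (SC, 5-day, 15-day), vascular leptomeningeal cells 11, 18 and 60, smooth muscle cells 21, 12 and 26, and committed oligodendrocyte precursors 70, 47 and 67. Cluster 5 of the endothelial class was led by hemoglobin genes and also by the pericyte markers Rgs5 and Vtn, and clusters 31 and 32 came from the 15-day library only and stayed unnamed. In all, 158 barcode sequences occurred in more than 1 library.

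IGF1 and IGF2 are small secreted hormones related to insulin. Both signal through the tyrosine kinase IGF1R, which passes its signal to insulin receptor substrate (IRS) adaptors, PI3-kinase and AKT, while IGF2R, also the cation-independent mannose 6-phosphate receptor, removes IGF2 and sorts lysosomal enzymes. The binding proteins hold IGFs outside cells and release or block them; IGFBP7 binds IGFs weakly and is also a matrix protein of vessel walls. In the brain, IGFs act on growth, myelination, vessels and metabolic control.

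Gene positions are from GENCODE release M21 on GRCm38, the build of the deposited files. All 10 are protein-coding. Igfbp2 (chr1:72824503-72852474, plus strand) and Igfbp5 (chr1:72857932-72874884, minus strand) are neighbours that face each other tail to tail, with 5.46 kb between them. Igf1r spans 281 kb (chr7:67952827-68233668, plus strand), and Igfbp7 spans 58.8 kb (chr5:77349240-77408041, minus strand). The promoters of these 4 genes are shown because they carry the patterns that follow: Igfbp2 and Igfbp5 were both high in leptomeningeal cells but differed in level in the ventricular wall, and Igf1r and Igfbp7 were both high in endothelial cells. They are RefSeq windows on GRCm38.p6, from 250 bases before to 50 bases after a RefSeq start, printed 5′ to 3′ on the gene's strand. Capitals mark GGGCGG, the GC box, in either orientation.
Igfbp2 (chr1:72824230-72824529, plus): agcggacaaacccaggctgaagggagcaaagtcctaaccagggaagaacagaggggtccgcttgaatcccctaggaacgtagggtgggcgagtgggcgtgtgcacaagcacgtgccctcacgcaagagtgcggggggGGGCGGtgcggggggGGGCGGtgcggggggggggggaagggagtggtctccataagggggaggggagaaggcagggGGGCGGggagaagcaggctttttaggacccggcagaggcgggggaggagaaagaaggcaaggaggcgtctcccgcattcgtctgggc
Igfbp5 (chr1:72874816-72875115, minus): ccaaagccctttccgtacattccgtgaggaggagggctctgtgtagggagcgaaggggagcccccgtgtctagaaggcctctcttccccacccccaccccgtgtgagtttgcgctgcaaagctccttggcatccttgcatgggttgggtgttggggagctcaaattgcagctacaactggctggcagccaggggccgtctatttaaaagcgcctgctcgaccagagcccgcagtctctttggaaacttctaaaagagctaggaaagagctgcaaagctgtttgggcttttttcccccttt
Igf1r (chr7:67952007-67952306, plus): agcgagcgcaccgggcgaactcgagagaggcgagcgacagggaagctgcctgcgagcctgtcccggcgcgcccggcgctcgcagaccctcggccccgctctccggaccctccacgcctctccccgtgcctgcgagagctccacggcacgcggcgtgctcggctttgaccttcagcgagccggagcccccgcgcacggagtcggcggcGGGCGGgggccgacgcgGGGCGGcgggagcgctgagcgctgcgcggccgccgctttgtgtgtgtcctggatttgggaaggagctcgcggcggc
Igfbp7 (chr5:77407996-77408295, minus): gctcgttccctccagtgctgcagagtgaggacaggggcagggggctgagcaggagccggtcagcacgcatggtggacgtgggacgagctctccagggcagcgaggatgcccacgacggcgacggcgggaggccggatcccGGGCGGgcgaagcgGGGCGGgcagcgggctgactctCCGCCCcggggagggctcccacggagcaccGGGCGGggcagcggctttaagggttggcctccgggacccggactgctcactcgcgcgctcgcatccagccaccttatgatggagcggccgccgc
The GC box occurred 3 times in the Igfbp2 window, 2 times in that of Igf1r, 4 times in that of Igfbp7 and not in that of Igfbp5. It was found in 35.7% of all 32851 promoter windows. The windows were 67.0%, 76.0%, 73.3% and 56.3% G or C for Igfbp2, Igf1r, Igfbp7 and Igfbp5. The TATA motif TATAAA, sought on both strands, was in none of these 4 windows, in 1 other member's window (Igfbp4) and in 13.6% of all windows. Igfbpl1 had no entry. Igfbp2 has a further window (chr1:72825137-72825436), not shown, with no GC box and 57.3% G or C.

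The ligands were found in few cells. Levels are given as CPM, the UMIs of a gene per 1000000 UMIs of a class in a library. Igf1 (chr10:87858265-87937042, plus strand) had 172, 196 and 191 CPM in border macrophages (SC, 5-day, 15-day) and 160, 211 and 128 CPM in vascular leptomeningeal cells, the fibroblasts of the brain's coverings. The ranges of these classes overlapped. In the 5-day library, 56.5% of the border macrophage Igf1 UMIs came from 1 cell. Microglia, the resident immune cells, had 8.52, 2.88 and 8.93 CPM, and only 17 of 575, 6 of 504 and 11 of 625 of their cells held an Igf1 UMI. In all, 0.24% to 0.50% of endothelial cells, which should lack it, held one. One cell held 53.1% of the microglial UMIs in the 15-day library. All other classes had a mean of 0.70 CPM or less. No Igf1 UMI was found in 2842 astrocytes, whose 10165411 UMIs allow a level of up to 0.295 CPM, nor in 1569 oligodendrocytes.

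Igf2 (chr7:142650766-142666816, minus strand), an imprinted fetal growth factor, was rarer, with 66 UMIs in all kept cells. It had 185, 88.1 and 18.7 CPM in vascular leptomeningeal cells, from 15, 10 and 6 UMIs, and the 95% Poisson intervals of SC (103 to 304) and 15-day (6.87 to 40.8) did not overlap. These values rest on 11, 18 and 60 cells. Markers of oligodendrocytes (13 genes) summed to 41650, 33420 and 10580 CPM in the leptomeningeal class. Those of pericytes (9 genes) summed to 3137, 6094 and 1055 CPM, and each sum was lowest at 15 days. The oligodendrocyte list includes Apod, a leading gene of the leptomeningeal cluster itself, and 1 of its 13 markers was highest in this class. The part of these markers in the leptomeningeal values was not tested. Pericytes, the contractile cells that wrap capillaries, had 18.3, 14.9 and 20.02 CPM, above the leptomeningeal value in the 15-day library and below it in the other two. Tanycytes, the ventricular cells that line the median eminence, had no Igf2 UMI among 33245734, which allows up to 0.0902 CPM. Exons of Igf2 overlap the same-strand gene Gm49394 and the antisense gene Igf2os, so its counts are uncertain where reads fall there.

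**Figure D1:**
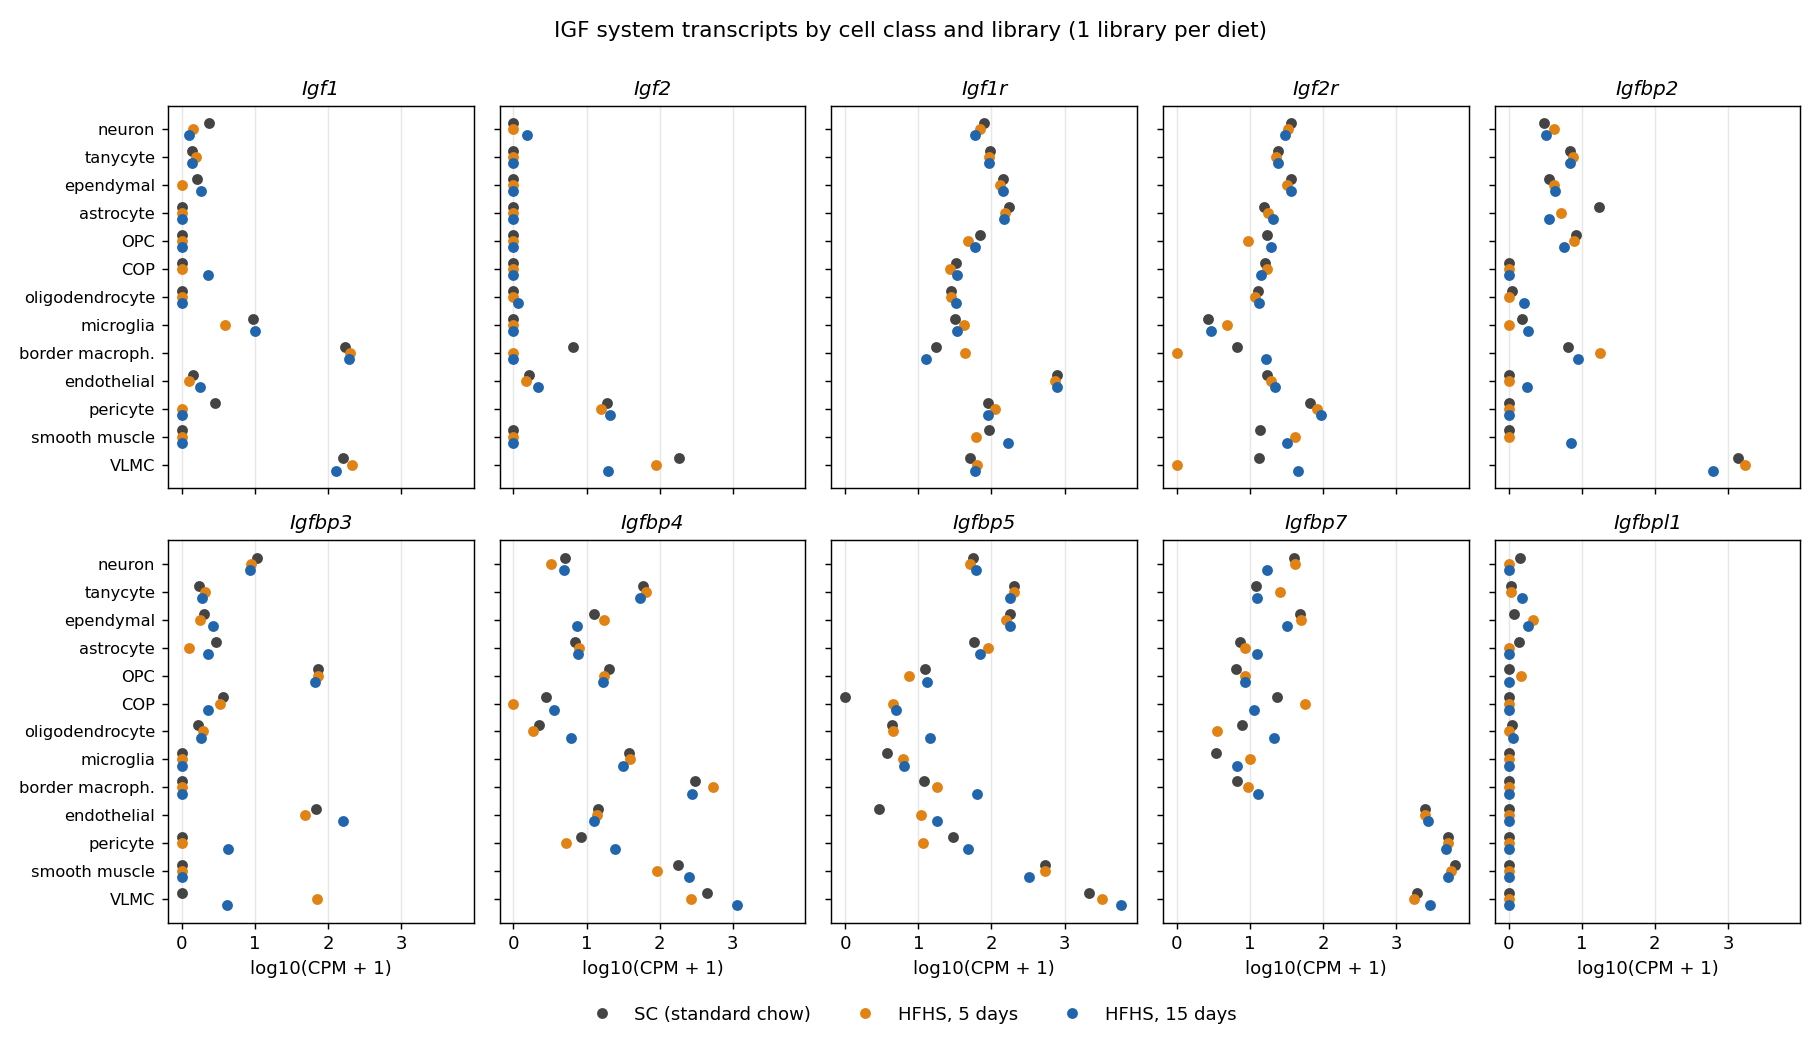
Level of each of the 10 genes in 13 cell classes; the x axis is log10(CPM + 1), and each point is 1 library (dark grey SC, orange 5-day, blue 15-day). OPC and COP are oligodendrocyte precursors and committed ones, and VLMC are leptomeningeal cells. Igf1r points in endothelial cells lie between 728 and 793 CPM, Igfbp7 is highest in the 4 vascular and leptomeningeal classes, and Igfbpl1 stays near 0.

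Igf1r had its highest level in endothelial cells, the lining of vessels, at 775, 728 and 793 CPM (mean 765 ± 33.5, SD over 3 libraries). The next class, astrocytes, had 175, 151 and 149 CPM, and the ranges did not overlap. Ependymal cells had 139 CPM on average, smooth muscle cells 106, pericytes 96.1, tanycytes 92.7 and neurons 68.4. Border macrophages (23.7) and oligodendrocytes (28.8) had the lowest means. Of these neighbours in the order, ependymal and smooth muscle cells, smooth muscle cells and pericytes, and pericytes and tanycytes had overlapping ranges. An Igf1r UMI was present in 92.3%, 88.5% and 80.6% of endothelial cells and in 15.0%, 18.5% and 15.4% of microglia. After each cell was thinned to 1000 UMIs the endothelial shares were 46.6%, 49.9% and 46.3% and the microglial shares 3.08%, 2.68% and 3.91%.

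Igf2r (chr17:12682406-12769664, minus strand) was highest in pericytes, at 65.8, 80.7 and 93.4 CPM. Ependymal cells (34.03 CPM on average) and neurons (31.9) followed with overlapping ranges, and microglia had the lowest mean, 2.48 CPM. Airn, the antisense RNA that silences the paternal Igf2r allele in most tissues, also had its highest level in pericytes, at 82.3, 82.8 and 80.1 CPM, against 7.75, 3.35 and 3.87 CPM in neurons. Airn lies on the opposite strand across part of Igf2r. No annotated exons of the pair overlap, and whether counting used strand is not given in the sources used here.

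Class differences of the members were tested with edgeR's quasi-likelihood test on UMI sums per class and library, with the library as a block. Each of 9 classes with at least 50 cells in every library was set against the mean of the other 8. A gene was called higher at a Benjamini-Hochberg adjusted p of at most 0.05 and a log2 fold change of at least 1. These p-values rest on the spread of the sums that is left after class and library are fitted. That spread holds any diet effect that differs between classes, and each of the 3 libraries is a pool of another diet. Of 10 members, 9 passed the filter on low counts (Igfbpl1 did not), and of their 81 contrasts 19 were called higher and 17 lower (a log2 fold change of -1 or less). Over all genes and the 9 contrasts 18% were called higher and 15% lower. A member could pass the filter through the class where it is high. Across all 15578 genes tested, the share called higher was 18.2% in astrocytes, 17.5% in endothelial cells, 22.6% in ependymal cells, 18.4% in microglia, 22.5% in neurons, 16.2% in oligodendrocytes, 16.3% in oligodendrocyte precursors, 10.3% in pericytes and 19.8% in tanycytes. In the same order the share called lower was 14%, 18.3%, 12.1%, 21.5%, 15.4%, 18.1%, 13.5%, 12.4% and 9.67%. Members called higher numbered 4 of 9 in endothelial cells, 3 in pericytes, 3 in tanycytes, 2 each in astrocytes, ependymal cells, microglia and oligodendrocyte precursors, 1 in neurons and 0 in oligodendrocytes. Members called lower numbered 5 in microglia, 4 in oligodendrocytes, 3 in oligodendrocyte precursors, 2 in neurons, 1 each in astrocytes, endothelial cells and tanycytes, and 0 in ependymal cells and pericytes. The members' median log2 fold change was 1.05 in endothelial cells and -1.86 in oligodendrocytes, against -0.044 and -0.029 over all genes.

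For the receptors, the log2 fold change of Igf1r in endothelial cells was 3.61 (SE 0.08, adjusted p = 1.6e-31, edgeR's quasi-likelihood test), and it was called higher in no other class. Igf2r was called higher in pericytes alone among the 9 classes, by 2.08 (SE 0.19, adjusted p = 2.5e-11, same test). The ligand Igf1 was called higher in microglia (adjusted p = 5.0e-13), and Igf2 in pericytes (adjusted p = 3.8e-10) and endothelial cells (adjusted p = 7.0e-04), by edgeR's test. The endothelial call rests on 3, 2 and 3 Igf2 UMIs (0.63, 0.48 and 1.16 CPM), and 5 of these 8 were in cluster 5, which carries pericyte markers. The fold changes of the ligands, Igfbp2 and Igfbp3 are not given because at least 1 class had no UMI.

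The binding proteins differed in the classes where they were high. Igfbp7 was highest in the cells of the vessel wall. It had 6333, 5660 and 5078 CPM in smooth muscle cells, 5103, 5051 and 4769 in pericytes, 2466, 2502 and 2693 in endothelial cells and 1907, 1752 and 2893 in leptomeningeal cells. Every other class averaged 42.7 CPM or less. Its log2 fold change was 7.36 (SE 0.17, adjusted p = 1.2e-29) in pericytes and 6.76 (SE 0.16, adjusted p = 2.2e-29) in endothelial cells, by edgeR's test. An exon of Igfbp7 overlaps Polr2b on the opposite strand. An Igfbp7 UMI was present in 92.2% to 96.8% of endothelial cells and 1.57% to 3.04% of microglia.

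Igfbp2 and Igfbp5 were both highest in leptomeningeal cells. Igfbp2 had 1378, 1691 and 624 CPM there, and no other class averaged more than 10.1 CPM. Igfbp5 had 2141, 3258 and 5939 CPM there and was spread more widely, with 536, 547 and 329 CPM in smooth muscle cells, 202, 203 and 179 in tanycytes, 181, 157 and 181 in ependymal cells, 56.6, 88.9 and 69.4 in astrocytes and 55.9, 49.4 and 61.4 in neurons. Tanycyte and ependymal ranges overlapped. Igfbp5 was called higher in tanycytes (log2 fold change 3.27, SE 0.14, adjusted p = 9.0e-22), ependymal cells (3.00, SE 0.15, adjusted p = 2.6e-19) and astrocytes (1.49, SE 0.19, adjusted p = 1.1e-08) by edgeR's test. Igfbp2 was also called higher in astrocytes, tanycytes, ependymal cells and oligodendrocyte precursors at levels of only 2.57 to 16.4 CPM. In SC, 1 astrocyte held 64.3% of that class's Igfbp2 UMIs, and the ependymal call was lost without the 5-day library.

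Igfbp4 (chr11:99041244-99054392, plus strand) had 443, 264 and 1152 CPM in leptomeningeal cells and 306, 537 and 277 CPM in border macrophages, with overlapping ranges. Smooth muscle cells had 171 CPM on average, tanycytes 57.9 and microglia 35.6. It was called higher in tanycytes (log2 fold change 2.74, SE 0.12, adjusted p = 3.6e-21) and microglia (2.29, SE 0.17, adjusted p = 1.5e-14) by edgeR's test. Igfbp3 (chr11:7206086-7213923, minus strand), the main carrier of IGFs in blood, had 68.5, 48.0 and 161 CPM in endothelial cells and 71.9, 71.9 and 65.6 CPM in oligodendrocyte precursors. Both classes were called higher (adjusted p = 1.7e-24 and 4.9e-19), as were neurons at 9.80, 7.82 and 7.47 CPM (adjusted p = 2.5e-04, edgeR's test). Committed precursors averaged 2.10 CPM and oligodendrocytes 0.82. Endothelial Igfbp3 was concentrated in few cells, with 15, 12 and 4 cells holding at least 50% of the UMIs (SC, 5-day, 15-day), against 35, 32 and 26 precursors. Igfbpl1 (chr4:45809468-45826923, minus strand) had 21 UMIs in all, at most 1.14 CPM in any class.

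Within the ventricular wall the binding proteins varied between clusters. Tanycyte cluster 13 (59, 26 and 60 cells; led by Col25a1, Scn7a and Fndc3c1) had 484, 565 and 570 CPM of Igfbp5. Tanycyte clusters 10 and 12 had 222 and 140 CPM over the 3 libraries, and the ranges of cluster 13 and of either other cluster did not overlap. Cluster 13 also had 37.3, 49.3 and 39.5 CPM of Igfbp2, against 0.28 in cluster 10 and 4.68 in cluster 12. Its Igfbp4 level was 112, 179 and 104 CPM, against 43.3 and 56.7. Igf1r was 208, 159 and 142 CPM in cluster 13, against 105 and 75.4. Igfbp7 had no such order: tanycyte cluster 10 (led by Tgfb2, Rmst and Slit2) had 23.7, 41.7 and 23.1 CPM, cluster 12 had 5.17, 16.8 and 5.53, and cluster 13 had 2.43, 6.48 and 26.4. No test between clusters was run.

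**Figure D2:**
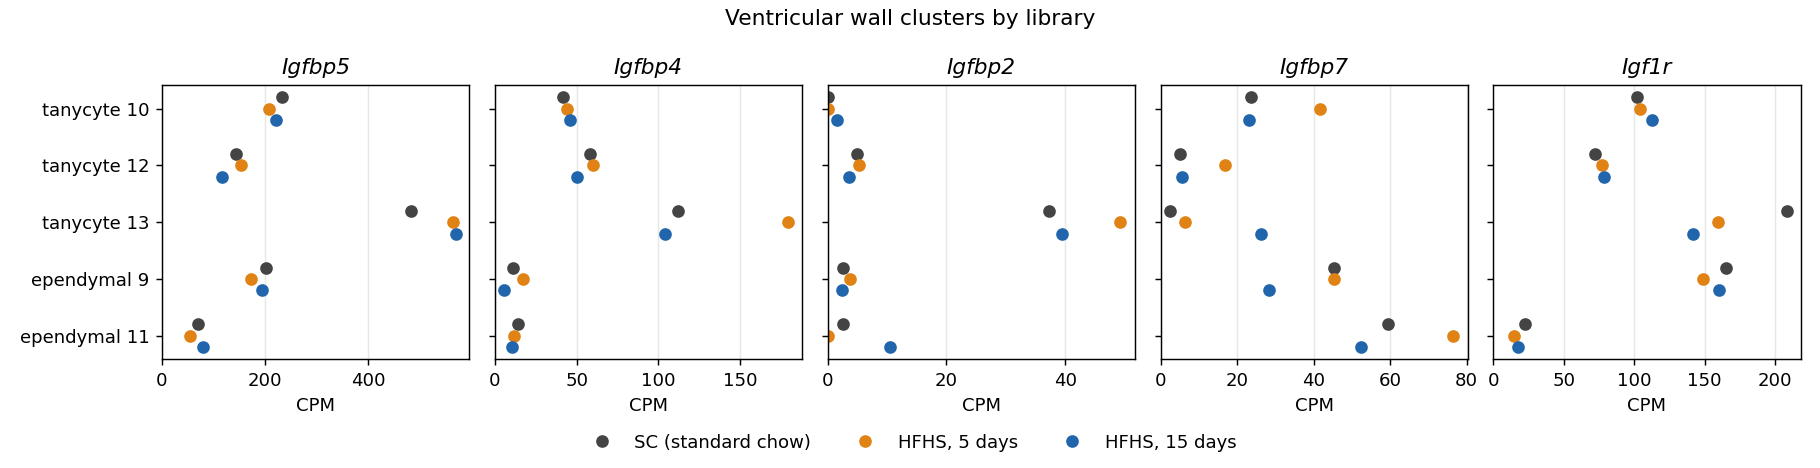
CPM of 5 members in 3 tanycyte and 2 ependymal clusters; each point is 1 library (dark grey SC, orange 5-day, blue 15-day). Tanycyte cluster 13 has the highest Igfbp5, from 484 to 570 CPM, and the highest Igfbp2, from 37.3 to 49.3 CPM.

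Among neurons, which were clustered again on their own, Igf1r was nearly missing from the cluster led by Agrp and Npy, the hunger-promoting neurons of the arcuate nucleus (cluster 8, 6, 30 and 34 cells). They held 0, 5 and 2 Igf1r UMIs (0, 3.93 and 2.70 CPM); the 194477 UMIs of the 6 SC cells allow up to 15.4 CPM. Over the 3 libraries the level was 3.17 CPM (95% Poisson interval 1.27 to 6.53). The cluster led by Cartpt, Gal and Pomc had 26.9, 32.4 and 54.6 CPM at a similar depth (medians of 24224 UMIs per cell, and 29689 in the Agrp cluster). A Pomc UMI was present in 58.8% of its cells and in 67.1% of the Agrp cluster's, and 1 cell held 41.6% of its Pomc UMIs, so it is called the Cartpt and Gal cluster here. The other 5 clusters of at least 50 cells had 40.6 to 140 CPM. An Igf1r UMI was present in 10.0% of the Agrp cells and 60.3% of the Cartpt and Gal cells. The Agrp cluster was the lowest of the 7 in each library, and no test between clusters was run.

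The insulin receptor gene Insr had 24.9 CPM in the Agrp cluster and 23.8 CPM in the Cartpt and Gal cluster, with intervals of 18.8 to 32.4 and 18.9 to 29.5. Both were below the 53.2 to 83.1 CPM of 4 of the other clusters, and the shallow cluster 6 had 20.3 CPM. The intervals of these clusters overlapped for Insr and not for Igf1r. Of the adaptors below both receptors, Irs1 had 1 UMI in the Agrp cluster (0.45 CPM) against 6.01 to 13.04 CPM elsewhere. Irs2 had 74.3 CPM, inside the range of the other clusters (70.1 to 141). Irs4, an adaptor expressed in the hypothalamus, was highest in the Agrp cluster in each library, at 365, 431 and 477 CPM, against 96.5 to 240 CPM in the other clusters over the 3 libraries. At 15 days its interval (429 to 530) overlapped that of cluster 0 (379 CPM, 289 to 487). These receptor and adaptor genes are from the signal relay list; showing them by neuron cluster was chosen after the Igf1r values were seen.

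**Figure D3:**
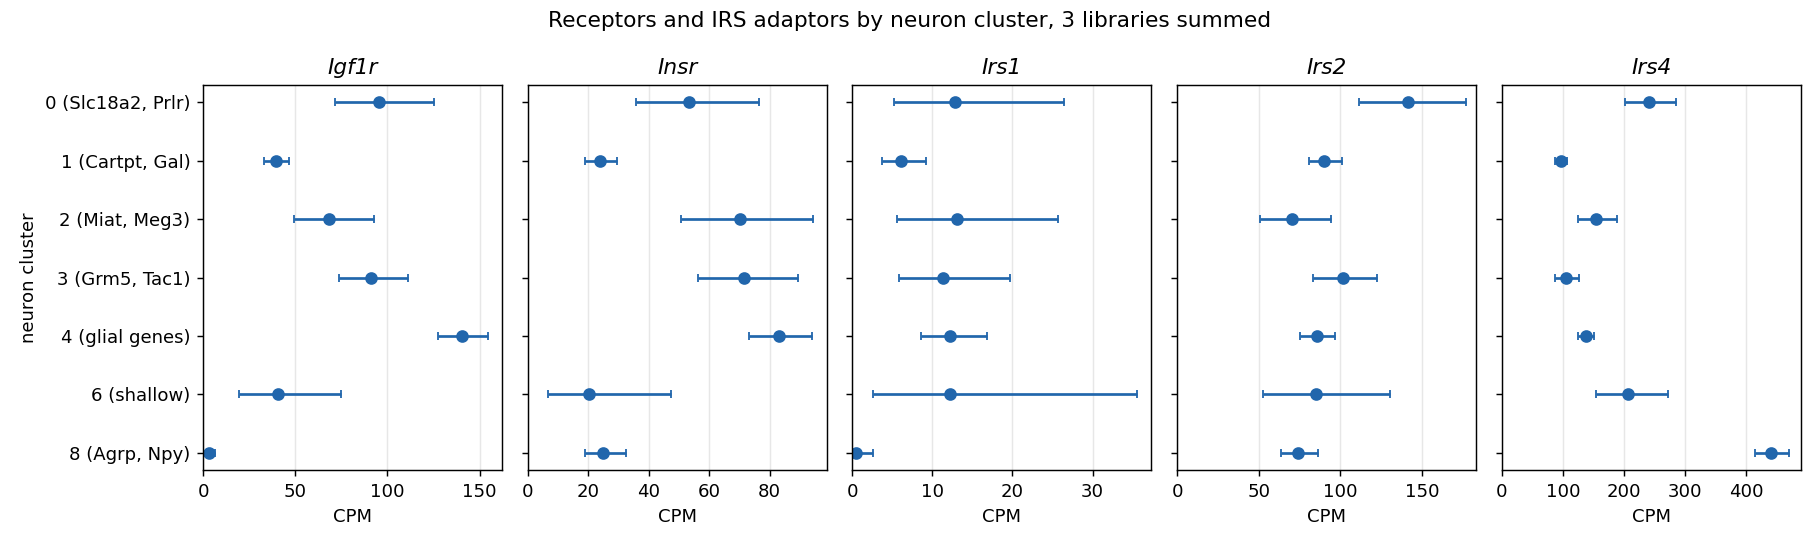
CPM of Igf1r, the insulin receptor and 3 IRS adaptors in the 7 neuron clusters of at least 50 cells, with the 3 libraries summed; bars are 95% Poisson intervals and cover counting error only. In the Agrp cluster Igf1r is 3.17 CPM and Irs4 441 CPM.

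The highest neuronal Igf1r level, 140 CPM, was in neuron cluster 4, whose leading genes were glial (Pdgfra, Slc1a2 and Gja1). That cluster also had 669 CPM of 11 summed endothelial markers, against 53.2 to 101.4 CPM in the other clusters, and 120 CPM of Igfbp7 against 1.36 to 16.2. Over all neurons Igf1r was 78.4, 68.8 and 57.8 CPM in SC, 5-day and 15-day. Without clusters 4 and 8 it was 61.1, 50.4 and 63.9 CPM. Without cluster 4 alone it was 57.0, 32.2 and 50.01 CPM, and the 5-day log2 ratio to SC was -0.82. Cluster 8 held 4.43%, 28.5% and 20.4% of neuronal UMIs in the 3 libraries and cluster 4 held 33.2%, 27.2% and 9.88%; their part in the neuronal Igf1r differences was not tested beyond these values. With at most 10% mitochondrial UMIs neuronal Igf1r was past the size limit for diets, defined below, as lower at 5 days (log2 ratio -1.11) and 15 days (-0.70). As a mean over cells the 15-day log2 ratio was 0.03.

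Other genes of the pathway were taken from written lists. In the list of IGF availability, 6 of 10 genes were tested and 12 of 54 contrasts were called higher and 5 lower. Over all genes 18% were called higher and 15% lower. Htra1, a protease that can cut binding proteins, was called higher in astrocytes (log2 fold change 4.11, SE 0.07, adjusted p = 1.9e-34, edgeR's test), at 776, 872 and 771 CPM. The growth hormone receptor Ghr was called higher in astrocytes (93.7, 77.8 and 87.1 CPM) and neurons (69.8, 67.9 and 52.8). Igfbp6, a binding protein that prefers IGF2, had 308, 167 and 256 CPM in leptomeningeal cells, and was called higher in microglia at 1.92, 4.80 and 7.53 CPM. Stc1, which encodes an inhibitor of the binding-protein protease PAPP-A, was called higher in pericytes at 18.3, 6.37 and 26.7 CPM.

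In the list of signal relay, 38 of 252 contrasts of 28 genes were called higher and 37 lower, against the 18% and 15% of all genes. In endothelial cells 11 of 28 were higher and 4 lower, against 17.5% and 18.3%. Insr, named as the closest relative of Igf1r and not by size, was among the endothelial calls (log2 fold change 2.35, SE 0.08, adjusted p = 1.2e-25), as were Socs2, a feedback inhibitor of growth hormone signalling (3.74, SE 0.14, adjusted p = 3.3e-23), and Grb10, which restrains both receptors (2.85, SE 0.12, adjusted p = 8.9e-22), by edgeR's test. Grb14, a related adaptor, was called higher in oligodendrocytes (6.48, SE 0.10, adjusted p = 3.2e-35), and Irs4 in neurons (4.50, SE 0.11, adjusted p = 7.6e-29). The list's median log2 fold change in endothelial cells was 0.43, against -0.044 for all genes. In the list of mannose 6-phosphate sorting, 4 of 36 contrasts were higher and 4 lower, against 18% and 15% of all genes. Gnptab, which makes the sorting tag, was called higher in oligodendrocytes (2.37, SE 0.08, adjusted p = 3.4e-25, edgeR's test). In the list of imprinted neighbours and Igf2 mRNA binding, 3 of 5 genes were tested. Of 27 contrasts 6 were higher and 4 lower, against 18% and 15% of all genes. Airn in pericytes had a log2 fold change of 5.22 (SE 0.27, adjusted p = 1.7e-18, edgeR's test).

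Genes most like each member were found by Pearson's r of log2(CPM + 1) over 39 sums of class and library, among 11921 genes. The sums share libraries and classes, so r is a description. Igf1r was most like Ccdc141 (r = 0.87), Esyt2 (0.84) and the glucose transporter Slc2a1 (0.84). Igfbp7 was most like A4galt (0.97), Foxc1 (0.97) and Ndufa4l2 (0.96). Igfbp2 was most like Col1a1 (0.92), Mfap5 (0.89) and Itih2 (0.88), and Igfbp5 most like Crispld2 (0.86), Fgfr1 (0.86) and Islr (0.85). The highest values were 0.90 for Igf1 (Cxcl16), 0.83 for Igf2r (6720427I07Rik) and 0.82 for Igfbp4 (Fgl2). Igfbp3 had Vstm2b, Vegfc and Clec14a at 0.82 each.

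Diet effects have no replicate, so each HFHS library was compared with SC by the ratio of CPM with an exact conditional binomial 95% interval, which covers counting error only. A pair of gene and class was called past a size limit if both libraries together held 100 UMIs or more, if either had 30 CPM or more, if the levels differed 1.5-fold or more, and if the interval left out any difference of 25% or less of the lower level. Both comparisons share the SC library. At 5 days, 22 pairs of 6 members met the minimums of 100 UMIs and 30 CPM, and 1 was past the limit. Over all genes 1.41% of 47331 pairs were past it. At 15 days 2 of 22 pairs were past it, against 3.99% of 47235 pairs. For the members, the median of the log2 ratios was -0.014 (5-day) and -0.057 (15-day), and for all genes it was -0.023 and -0.045.

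The other pairs that met the minimums were not past the limit, and for those with many UMIs the intervals were narrow. Igf1r in endothelial cells had log2 ratios of -0.09 (interval -0.16 to -0.02) and 0.03 (-0.05 to 0.11). In tanycytes it was 93.3, 92.5 and 92.3 CPM. Igfbp5 in tanycytes had log2 ratios of 0.005 (-0.08 to 0.09) and -0.18 (-0.27 to -0.09), and Igfbp7 in pericytes -0.015 (-0.09 to 0.07) and -0.10 (-0.19 to -0.01). Igfbp3 in oligodendrocyte precursors had log2 ratios of -0.001 (-0.33 to 0.33) and -0.13 (-0.52 to 0.24). Intervals that excluded 0 without reaching the limit included Igf1r in oligodendrocyte precursors at 5 days (-0.56, -0.94 to -0.19) and in neurons at 15 days (-0.44, -0.70 to -0.19). Igfbp7 in ependymal cells at 15 days was another (-0.60, -1.001 to -0.22). Pericyte markers summed to 46.27, 36 and 10.96 CPM in ependymal cells and endothelial markers to 78.11, 115.2 and 40.05, both lowest at 15 days. Smooth muscle markers (558.6, 569.7 and 678 CPM) and leptomeningeal markers (620.9, 635.8 and 719.3 CPM) were highest at 15 days there. The part of these markers in ependymal Igfbp7 was not tested. Some pairs short of the minimums had larger ratios, in both directions. Igfbp5 in endothelial cells was 1.88, 10.04 and 17.06 CPM, from 9, 42 and 44 UMIs. Its log2 ratios were 2.42 (1.36 to 3.64) and 3.18 (2.13 to 4.40). Leptomeningeal markers summed to 62.0, 55.0 and 193.5 CPM in endothelial cells, lowest at 5 days and highest at 15 days. Smooth muscle markers summed to 262, 486 and 264 CPM there, highest at 5 days. The part of these markers was not tested. In oligodendrocytes Igfbp5 was 3.31, 3.46 and 13.54 CPM. Igfbp7 in tanycytes at 5 days was 24.58 CPM against 11.14 in SC (1.14, 0.855 to 1.43). Smooth muscle markers summed to 45.09, 143.1 and 46.52 CPM in tanycytes (SC, 5-day, 15-day) and pericyte markers to 15.77, 32.59 and 18.99. Both sums were highest at 5 days, as was that of endothelial markers (112, 125.2 and 100.6 CPM). Leptomeningeal markers were lowest at 5 days (162, 144.5 and 154.7 CPM). The part of these markers in tanycyte Igfbp7 was not tested. Igfbp2 in astrocytes was lower, at 16.4, 4.21 and 2.63 CPM from 42, 16 and 10 UMIs (SC, 5-day, 15-day). The log2 ratios were -1.96 (-2.89 to -1.10) and -2.64 (-3.80 to -1.62). Only 7, 8 and 6 astrocytes held an Igfbp2 UMI. Both ratios share the SC sum, of which 1 cell held 64.3%, and the part of that cell was not tested.

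**Figure D4:**
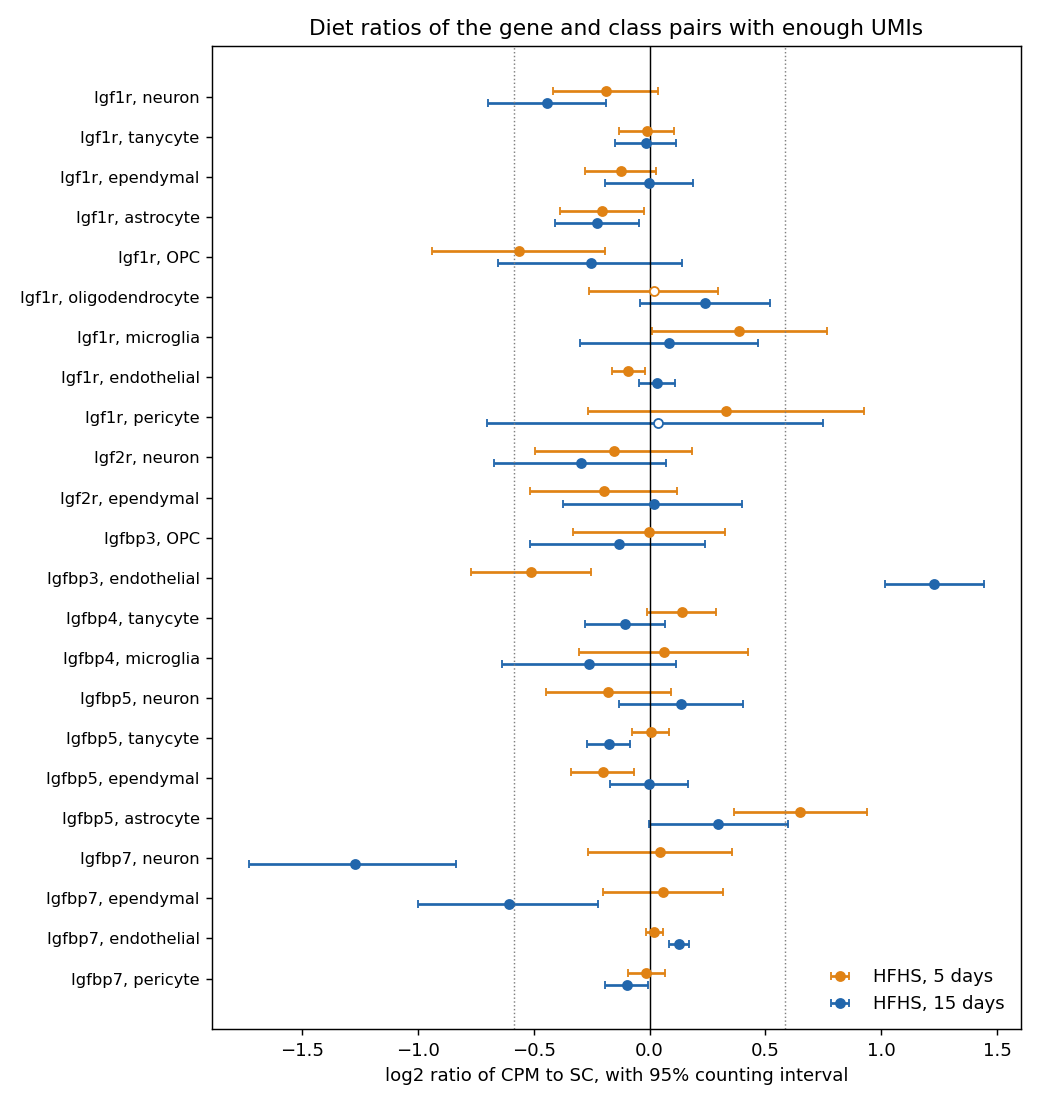
Log2 ratio of CPM to SC for the pairs of member and class with enough UMIs in either comparison; bars are 95% counting intervals, open points had too few UMIs in that comparison and dotted lines mark a ratio of 1.5. Most points lie near 0; Igfbp3 in endothelial cells at 15 days (1.23), Igfbp7 in neurons at 15 days (-1.27) and Igfbp5 in astrocytes at 5 days (0.65) lie outside the lines and past the limit.

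Igfbp5 in astrocytes was 56.6 CPM in SC, 88.9 at 5 days and 69.4 at 15 days. The 5-day log2 ratio was 0.65 (0.37 to 0.94), and the 15-day ratio was 0.29 (-0.004 to 0.60). The 5-day level was above SC in both main astrocyte clusters, with 54.6 and 91.6 CPM in cluster 0 and 58.4 and 87.5 CPM in cluster 1 (SC, 5-day). All 13 tanycyte markers summed to 237, 167 and 244 CPM in the astrocytes of SC, 5-day and 15-day and all 13 ependymal markers to 312, 280 and 300 CPM; both sums were lowest at 5 days. Slc17a8 was at 0 in SC and Dnah12 at 15 days. Astrocyte depth moved with the result, with medians of 2844, 3828 and 2689 UMIs per cell. The ratio was 0.50 on the log2 scale and not past the limit when cells were thinned to 1000 UMIs, and it was also not past it with at most 10% mitochondrial UMIs (0.33), as a mean over cells (0.34) or with no doublets removed (0.55). With no doublets removed the 15-day log2 ratio was 1.60.

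Igfbp3 in endothelial cells was 68.5 CPM in SC, 48.0 at 5 days and 161 at 15 days, with log2 ratios of -0.51 (-0.77 to -0.25) and 1.23 (1.02 to 1.44). One cell held 29.95% of the 15-day UMIs, and 335 of the 414 UMIs were in endothelial cluster 3 (31, 40 and 89 cells). Cluster 3 had 224, 50.4 and 1912 CPM (1328 at 15 days without its top cell), while the main endothelial cluster 4 had 79.7, 49.4 and 39.3 CPM. Plvap encodes the diaphragm protein of the leaky, fenestrated vessels found in the median eminence. It had a UMI in 6 of 404, 4 of 392 and 24 of 412 endothelial cells, or 1.49%, 1.02% and 5.83%. In astrocytes the share was 1.15%, 1.12% and 0.24% (median depths of 2844, 3828 and 2689 UMIs), and in oligodendrocytes 0.85%, 1.64% and 1.81% (13938, 15401 and 9761). The SC and 5-day endothelial shares lay inside the range of these 6 shares (0.24% to 1.81%). Other classes lay above this range, among them tanycytes (20.3%, 20.9% and 11.6%), oligodendrocyte precursors (5.33%, 10.2% and 3.93%) and neurons (6.7%, 8.16% and 5.82%). The share alone is therefore not read as expression in SC and at 5 days. Endothelial cells of SC had 6 Plvap UMIs in 6 cells, while at 5 days 1 cell of cluster 3 held 20 of the 23. At 15 days 22 of the 24 cells were in cluster 3, with 357 of the 359 Plvap UMIs. Igfbp3 was 74.4, 100.7 and 2976 CPM in the cells with a Plvap UMI and 68.4, 47.2 and 34.04 CPM in those without. Median depths were 12386, 15019 and 3055 UMIs with and 8676, 7318 and 4223 without. In cells without a Plvap UMI the 15-day log2 ratio was -1.01 (-1.37 to -0.66), in the opposite direction. Without cluster 3 it was -1.02, with at most 10% mitochondrial UMIs -0.95, and with no doublets removed -0.48. It was 0.85 without the top cell, 0.53 with at least 1000 genes per barcode and 2.47 with the members left in the clustering. Pericyte markers (9 of 9 with a UMI) summed to 2064, 1569 and 2876 CPM in the endothelial class; their part in the result was not tested. Splitting the cells by Plvap was chosen after the cluster values were seen.

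**Figure D5:**
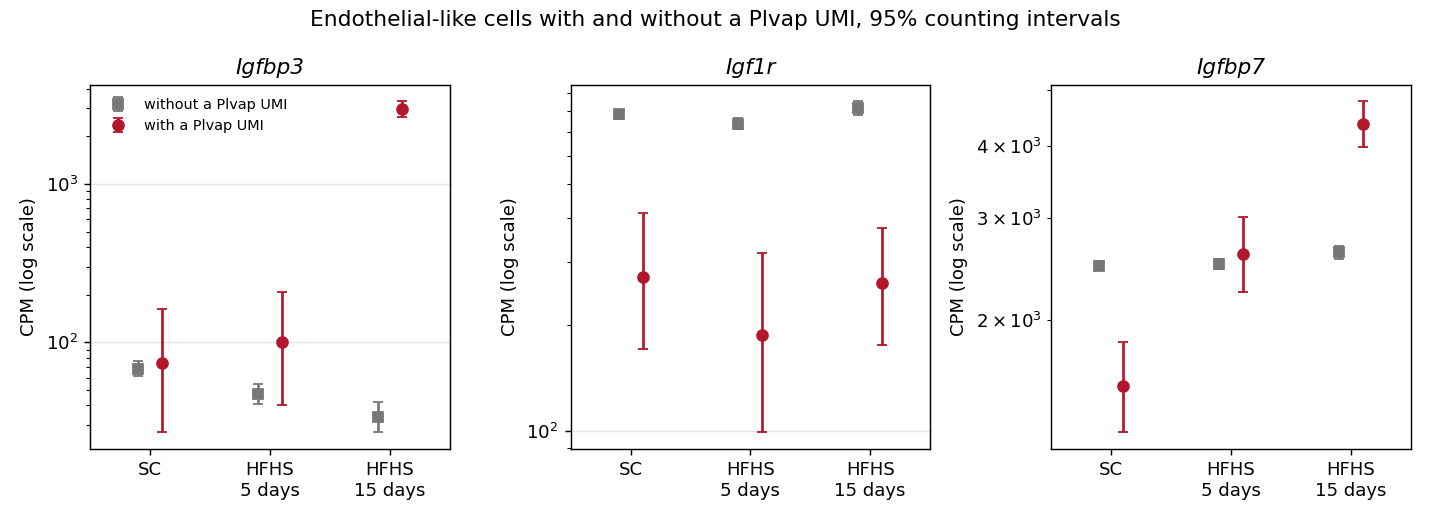
CPM (log scale) of Igfbp3, Igf1r and Igfbp7 in endothelial cells with a Plvap UMI (red circles) and without one (grey squares) in each library; bars are 95% Poisson intervals. Igfbp3 reaches 2976 CPM in the 24 Plvap cells of the 15-day library, and Igf1r is lower in Plvap cells in all 3 libraries.

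By the same split Igf1r was 273, 187 and 262 CPM with a Plvap UMI and 784, 737 and 817 CPM without. No 95% Poisson intervals of the pairs overlapped. For SC and 5-day this split rests on 6 and 4 cells, with Plvap shares near those of astrocytes and oligodendrocytes. In the Plvap cells of SC and 5-day 1 cell held 59.1% and 53.8% of the Igf1r UMIs. Igfbp7 had no such order, at 1537, 2603 and 4374 CPM with and 2482, 2501 and 2618 CPM without.

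Igfbp7 in neurons was 38.8, 40.0 and 16.0 CPM, with a 15-day log2 ratio of -1.27 (-1.73 to -0.83). The UMIs sat in few cells: 26 of 359, 19 of 282 and 16 of 395 neurons had one, and 1 cell held 57.5% of those at 5 days. The 11 endothelial markers summed to 264, 247 and 103 CPM in neurons and the 9 pericyte markers to 122, 143 and 24.3 CPM, each marker had a UMI in every library, and both sums were lowest at 15 days. Their part in the result was not tested. Without neuron cluster 4 the levels were 3.76, 3.68 and 5.83 CPM, and the 15-day log2 ratio was 0.63 (-0.51 to 1.85). It was 0.15 as a mean over cells and 0.22 with no doublets removed. The 5-day ratio was -0.93 without the top cell and -4.23 with at most 10% mitochondrial UMIs, both past the limit as lower. It was 0.67, past the limit as higher, when each cluster had the same weight in both libraries. That weight was the cluster's UMIs in both libraries together. Clusters with few cells in either library, such as that led by Npy and Agrp (6 SC cells), were left out. The main interval was shifted to the new ratio.

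Of the lists, no pair rose past the size limit. In the relay list 2 of 119 pairs were lower at 5 days and 4 of 119 at 15 days, where 0.756% and 2.17% of all pairs were lower. Grb14 in neurons was 45.4, 20.1 and 18.8 CPM, with log2 ratios of -1.17 (-1.55 to -0.81) and -1.27 (-1.69 to -0.87). Grb14 was highest in oligodendrocytes among the tested classes, and 13 oligodendrocyte markers summed to 1961, 905 and 932 CPM in neurons, highest in SC as Grb14 was; their part was not tested. Rictor, a subunit of the mTOR complex that phosphorylates AKT, was 112 CPM in SC neurons and 66.9 at 15 days, the kinase gene Rps6kb1 111 and 67.2 CPM, and the mTOR inhibitor Tsc1 102 and 65.0 CPM. The shares of neuronal UMIs in clusters 4 and 8, given above, moved with these neuronal values, and their part was not tested. Pik3r3 in oligodendrocytes was 76.4 CPM in SC and 45.7 at 5 days. Htra1 in oligodendrocyte precursors was 149 CPM in SC and 88.8 at 15 days, the one pair of 15 in the availability list past the limit.

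In leptomeningeal cells, with 11, 18 and 60 cells, the size limit was not applied, because a class needed 50 cells per library. Igfbp5 was 2141 (1834 to 2483), 3258 (2935 to 3608) and 5939 (5675 to 6212) CPM with 95% Poisson intervals, highest at 15 days. Igfbp2 was 1378 (1135 to 1658), 1691 (1460 to 1948) and 624 (541 to 717) CPM, lowest at 15 days. Igfbp4 was highest at 15 days, at 1152 CPM (1037 to 1275). One cell held 29.9%, 27.0% and 9.20% of the Igfbp5 UMIs. The number of cells and the oligodendrocyte and pericyte marker sums given above with Igf2 (41650, 33420 and 10580 CPM, and 3137, 6094 and 1055 CPM) moved with the diets, and their part in these differences was not tested.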

How the data were processed

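Single-cell libraries were made with a 10x Genomics 3' kit from pooled micropunches, 1 per diet, per the labels' protocols. The deposited matrices hold raw UMI counts, made by the authors with Cell Ranger on GRCm38, per the submitters' processing notes, which also name SAMtools and Scanpy 1.4.4; the annotation is not given in the sources used here. Totals were 59315940 (SC), 52735770 (5-day) and 43193012 (15-day) UMIs in 7116, 6204 and 7823 barcodes. Of the listed gene IDs, 31107 were in GENCODE M21 and 146 were not.

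Barcodes needed 500 genes or more, with mitochondrial UMIs making up no more than 20%. Scrublet's automatic call marked 0%, 1.27% and 1.53%, so it had not worked in SC, and the highest scores were removed at 0.8% per 1000 barcodes (291, 211 and 344). Counts were scaled to 10000, and 3000 variable genes without the 10 members, 40 components, 15 neighbours and Leiden resolution 1 were used (Scanpy 1.11.5, Python 3.11.15). A class needed 3 of its markers among a cluster's 50 leading genes. Sums were tested with edgeR 4.0.16 in R 4.3.3, and DESeq2 1.42.0 was an alternative. On simulated counts for astrocytes against the other classes (15578 genes), 100% of genes changed 4-fold and 55% of those changed 2-fold were called higher, the limit on the fold change being 2-fold. On simulated Poisson counts for astrocytes at 5 days against SC (31253 genes), the size limit on diet ratios found 98% of doubled and 75% of halved genes. The changed genes were drawn from those with enough expected UMIs. The simulation held no gathering of UMIs in few cells and no spread between pools. These shares therefore do not cover results that rest on few cells. All intervals are at 95% and cover counting error only.

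The members and lists were chosen with earlier results of these data known. Named genes were the members, the 3 genes most like each member with at least 100 UMIs, and in each list up to 4 genes by size among those called; Insr was added. Leaving out Plvap cells, endothelial cluster 3 or neuron cluster 4 was chosen after seeing the data.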

Additional observations from a re-analysis of the deposited data

Results flagged for a closer look

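Igfbp3 in endothelial-like cells as a whole moved in opposite directions in the HFHS libraries, with a log2 ratio to SC of -0.51 at 5 days and 1.23 at 15 days. Without cluster 3 it was lower in both, at -0.47 and -1.02. In cells without a Plvap UMI it was also lower in both, at -0.54 and -1.01. Each direction rests on 1 library and both ratios share SC; the difference between them was not tested.

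Unnamed cluster 2 (333, 277 and 360 cells), whose leading genes included the tanycyte marker Crym and the ependymal markers Fam183b and Cfap126, entered no comparison. In its 15-day cells 4 of the 10 members had 95% Poisson intervals above those of SC. Other genes were not compared in this cluster, whose median depth was 1370 UMIs per cell. Whether the members differ there from genes at large is therefore not known. Igfbp5 was 670 CPM against 103 in SC, and 1 cell held 51.4% of its 15-day UMIs; without that cell it was 387 CPM. Igf1r was 91.5 CPM against 17.7, Igf2r 28.8 against 6.43, and Igfbp2 22.5 against 0. How far the same cell or another single cell carried the values of Igf1r, Igf2r and Igfbp2 was not tested.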

How the results depend on the processing

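No paired analysis was possible because each diet has 1 library and the labels give no replicate numbers shared between groups. The class contrasts called 19 member pairs higher, and 18 to 21 under 12 alternatives; leaving out each library gave 19 to 20. Between 17 and 19 of the 19 pairs were called again in each, and Igfbp2 in ependymal-like cells was lost without the 5-day library and with at most 10% mitochondrial UMIs. With at most 10% mitochondrial UMIs, or at least 1000 genes, 8 members were tested.

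The diet counts moved more, and the cause was not tested. At 5 days, 1 pair became 2 without the cell with most UMIs and with the same cluster weights in both libraries. It also became 2 with at most 10% mitochondrial UMIs, at Leiden resolution 2 and, added after seeing the data, without neuron cluster 4. It became 3 with at least 1000 genes, 4 with a 25% difference as the limit, and 0 when thinned or with a ratio of 2. At 15 days, 2 pairs became 1 with the mean over cells, at 1000 genes, with no doublets removed and without neuron cluster 4. They became 3 with at most 10% mitochondrial UMIs and 4 with a 25% difference as the limit. They became 0 when thinned or with the same cluster weights in both libraries. With those weights and for the mean over cells, the main interval was shifted to the new ratio. The pairs were not always those of the main setting. With no doublets removed the 15-day pair was Igfbp5 in astrocytes, as higher. The 5-day pair was endothelial Igfbp3, as lower, both as a mean over cells and with no doublets removed. With at most 10% mitochondrial UMIs the 5-day pairs were Igf1r and Igfbp7 in neurons, both lower. The 15-day pairs in that setting were the same 2 and endothelial Igfbp3, all lower. Reversed log2 ratios were those of endothelial Igfbp3 at 15 days (-0.95 with at most 10% mitochondrial UMIs, -0.48 with no doublets removed, -1.01 without Plvap cells, -1.02 without cluster 3) and of neuronal Igfbp7 at 15 days (0.15 as a mean over cells, 0.22 with no doublets removed, 0.63 without neuron cluster 4). Low depth limits Igf2 (66 UMIs) and Igfbpl1 (21), and 11, 18 and 60 cells limit the leptomeningeal values.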
